A study of Mus musculus with 6 samples.

Results

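The Frizzled genes Fzd1 to Fzd10 encode the mouse family of 10 seven-pass receptors for Wnt proteins. They were taken by name, as every probe whose gene name in the scanner files was that of a Frizzled gene: 13 probes for 10 genes, of 55681 probes and 34964 genes on the array. Gene expression was measured in mammary gland cells of virgin female mice on 6 two-colour arrays. 2 arrays held CD24+ CD29-high cells, labelled MaSC, from C57/B6 mice with the Dll1-mCherry reporter: 1 array of the Dll1-high (mCherry+) and 1 of the Dll1-low (mCherry-) fraction. The other 4 held F4/80+ macrophages: 2 arrays from Dll1 conditional KO mice (C57/B6:cKO-Dll1) and 2 from their wild type (WT) littermates. The labels do not say which Cre line or cell type drives the deletion, whether animals were pooled, their age, or whether replicates came from separate animals, so each p-value speaks only of the spread among these arrays, which may be technical. Below, the high and the low fraction are those of the CD24+ CD29-high cells, and macrophage values are given for replicate 1 and then replicate 2.

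A Frizzled receptor binds Wnt through its cysteine-rich extracellular domain and, with the co-receptor LRP5 or LRP6, recruits Dishevelled, which stabilises beta-catenin. Together with ROR and planar polarity proteins, Frizzled receptors also pass on Wnt signals that do not use beta-catenin. In the mammary gland, Wnt signals are known to sustain basal cells with stem cell activity, and macrophages are a known neighbour of that layer.

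Each value is the log2 ratio of a sample (Cy5) over a common reference RNA (Cy3), so 0 means a signal equal to the reference and 1 means 2-fold more. Ratios of different probes were not compared with each other. The scanner software called Cy5 well above background for 86% and 88.1% of spots in the high and low fractions and for 47.4% to 71.9% on the macrophage arrays. CD24+ CD29-high cells and macrophages lay on different slides, and in any difference between them the slide and the cell type cannot be told apart. On the macrophage slide, the replicate 1 arrays of KO and WT were in row 1 and the replicate 2 arrays in row 2, called the first and second slide row here. Marker medians followed the sort. The median log2 ratio of 14 basal mammary genes was 4.37 and 3.86 in the high and low fractions against 0.34 to 0.59 in macrophages. That of 14 macrophage genes was -0.44 and -0.28 against 2.45 to 4.37. The lowest macrophage value, 2.45, was that of WT replicate 1, which also had the highest fibroblast median (0.81, with -1.15 to -0.51 on the other 3 macrophage arrays). Single markers could overlap: the basal gene Trp63 read 0.47 and 0.77 in the high and low fractions and 0.11 to 3.23 in macrophages. Mylk, also basal, read 1.02 and 1.07 against 0.20 to 1.67, and the macrophage gene Mertk 0.86 and 0.71 against -0.43 to 1.67. The endothelial median was 1.16 and 1.57 against 1.69 to 3.39, and T, NK and B cell medians were higher in macrophages too. Dll1 itself read 3.94 in the high and 3.26 in the low fraction, 0.80 and 2.25 for KO, and 0.78 and 3.24 for WT. These are values of the brighter Dll1 probe. Another Dll1 probe read 0.38 in the high and 0.24 in the low fraction, -0.01 and 0.04 for KO, and -0.03 and 0.02 for WT. Neither Dll1 probe thus separated the arrays labelled KO from WT, and the labels do not say whether either lies in the deleted part.

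Fzd3 and Fzd7 were higher in the CD24+ CD29-high cells than in macrophages, and no Frizzled gene was called higher in macrophages. Of the 10 genes, 8 had a higher mean ratio in the CD24+ CD29-high cells and 2 a lower one. The limma test across all genes (Benjamini-Hochberg adjusted p, threshold 0.05) called 2 of the 10 higher, where 4.19% of the 31042 genes tested were called higher. It called 0 of the 10 lower, where 4.94% of all genes were called lower (9.13% in either direction). The median difference of the Frizzled genes was 0.62 on the log2 scale, with 3 of 10 at an unadjusted limma p under 0.05, and that of all genes tested was -0.04. For 6 of the 10 genes, Fzd1, Fzd3, Fzd6, Fzd7, Fzd9 and Fzd10, both CD24+ CD29-high arrays lay above all 4 macrophage arrays, as did 16% of all genes. For 0 of the 10 did both lie below, where 19.2% of all genes did. All 10 passed the filter for signal, Fzd3 through the CD24+ CD29-high arrays alone, so these counts are a description of the family. These are sorted bulk samples, in which fewer cells of a type and less RNA per cell cannot be told apart.

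**Figure D1:**
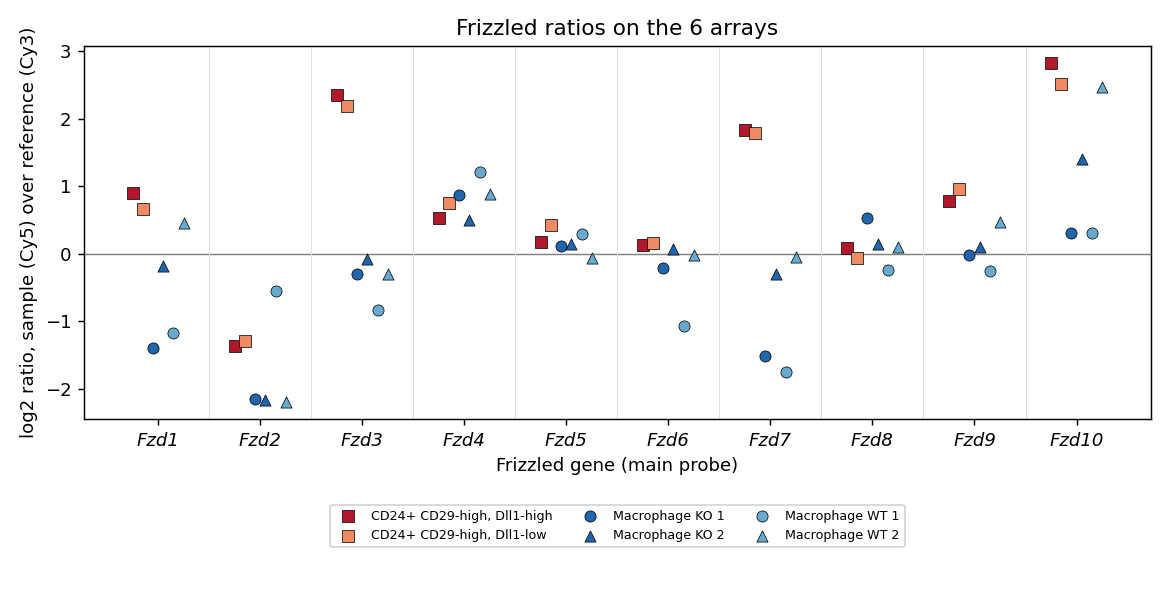
Log2 ratio of sample over reference (vertical axis) for the main probe of each of the 10 Frizzled genes (horizontal axis), with 1 point per array: squares for CD24+ CD29-high cells, circles and triangles for macrophage replicates 1 and 2. The squares lie above all macrophage points for Fzd1, Fzd3, Fzd6, Fzd7, Fzd9 and Fzd10, and the triangles lie above the circles for Fzd1, Fzd6, Fzd7, Fzd9 and Fzd10.

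Fzd3, a receptor best known from axon guidance and planar polarity, was measured in the CD24+ CD29-high cells and read at background in macrophages. Its log2 ratio was 2.35 in the high and 2.18 in the low fraction. On the macrophage arrays it was -0.31 and -0.07 for KO and -0.83 and -0.31 for WT. The groups were far apart, with both CD24+ CD29-high arrays above every macrophage array and little spread within either. The mean was 2.27 ± 0.12 (SD, n = 2) against -0.38 ± 0.32 (SD, n = 4), a difference of 2.65 (SE 0.24, limma adjusted p = 0.00287). Because Fzd3 passed the filter for signal through the CD24+ CD29-high arrays alone, this p and SE describe a distance from macrophage background readings, not an exact difference. The single Fzd3 probe lies on mm9 at chr14:65854084-65854142, minus strand. Its Cy5 signal was 2014 and 1535.5 over a local background of 73.5 and 78 in the high and low fractions. In macrophages it was 78 to 101 over 64 to 66, not well above background on any of the 4 arrays. The macrophage level is therefore unknown below that reading, and no exact fold is given: the CD24+ CD29-high cells stood 6.26-fold above it in the ratio and 6.95-fold in the Cy5 channel alone, which is open to dye bias because the dyes were never swapped. Against the first slide row of macrophages the log2 difference was 2.84 and against the second 2.46, with both rows at background. Where signal was required on every array, Fzd3 could not be tested. Like the p, the count of calls kept describes a distance from background readings. The call was kept in 16 of 18 other alternatives, which include fits on fewer arrays. It was lost without the Dll1-high array (limma adjusted p = 0.058) and where all 4 groups were fitted separately (limma adjusted p = 0.0631), the lowest and highest limma adjusted p over the 18 being 6.16e-06 and 0.0631.

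Fzd7, a receptor known from mammary stem cells and from many other Wnt-dependent stem cells, differed between the cell types on 1 of its 2 probes, while the other did not pass the test. The main probe, the brighter one, lies at chr1:59543192-59543251 on the plus strand of mm9. It read 1.83 in the high and 1.79 in the low fraction. It read -1.52 and -0.31 for KO and -1.76 and -0.05 for WT. Both CD24+ CD29-high arrays were above all macrophage arrays, and within macrophages the replicate 1 arrays were lower than the replicate 2 arrays in both genotypes. The mean was 1.81 ± 0.03 (SD, n = 2) against -0.91 ± 0.86 (SD, n = 4), a difference of 2.72 or 6.60-fold (SE 0.55, 95% interval 1.38 to 4.06, limma adjusted p = 0.0353). The Cy5 signal of this probe was well above background on all 6 arrays, at 2516 in the high fraction, 2227.5 in the low one and 108 to 310.5 in macrophages. In the Cy5 channel alone the difference was 2.06 (limma adjusted p = 0.049), and the Cy3 reference channel itself differed by -0.66. Against the first slide row of macrophages the difference in the ratio was 3.45, and against the second it was 1.99.

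The second Fzd7 probe starts 1825 bases upstream on the same strand, at chr1:59541367-59541426. It read -0.44 and -0.37 in the high and low fractions, -0.996 and -0.41 for KO, and -1.14 and -0.62 for WT. Here the high fraction lay below KO replicate 2, so the groups overlapped. Its difference was 0.38 (SE 0.24, limma adjusted p = 0.474 with every probe tested singly), and the mean of both probes gave 1.55 (limma adjusted p = 0.0634). In the Cy5 channel alone the difference of the second probe was 0.93, against 2.06 for the main probe. The Cy3 reference channel differed by 0.55 on the second probe, the opposite sign to the main probe. Its Cy5 signal was well above background on 1 of the 4 macrophage arrays, against 4 of 4 for the main probe. The sequence of this second probe is shown because it resembles that of the main Fzd2 probe (chr11:102467613-102467672, plus strand), the closest pair among the 3 pairs of Frizzled probe sequences that were set against each other without gaps. Capitals mark the 42 identical bases of the 50 that overlap (84%).
Fzd7: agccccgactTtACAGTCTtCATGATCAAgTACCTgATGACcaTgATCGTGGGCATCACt
Fzd2: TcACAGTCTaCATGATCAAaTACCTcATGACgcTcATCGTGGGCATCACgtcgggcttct
Whether RNA of one gene bound the probe of the other was not tested. In all, the Fzd7 call held in 10 of 20 alternatives, with a positive difference in all 20 (0.38 to 3.45, limma adjusted p 1.63e-05 to 0.474). The count of Frizzled genes called fell from 2 to 1 without KO replicate 1 or KO replicate 2, each time by the loss of Fzd7. Without WT replicate 1 it was 3, Fzd2 being added, in a fit that called 21% of all genes in either direction. The fits without KO replicate 1 and KO replicate 2 called 8.74% and 4.8% of all genes, and the fit with all arrays 9.13%. Leaving out the Dll1-low or the Dll1-high array left 1 CD24+ CD29-high array in the fit. The Fzd7 difference was then 2.74 and 2.70, past the threshold in neither fit, and that of Fzd3 was 2.73 and 2.56.

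**Figure D2:**
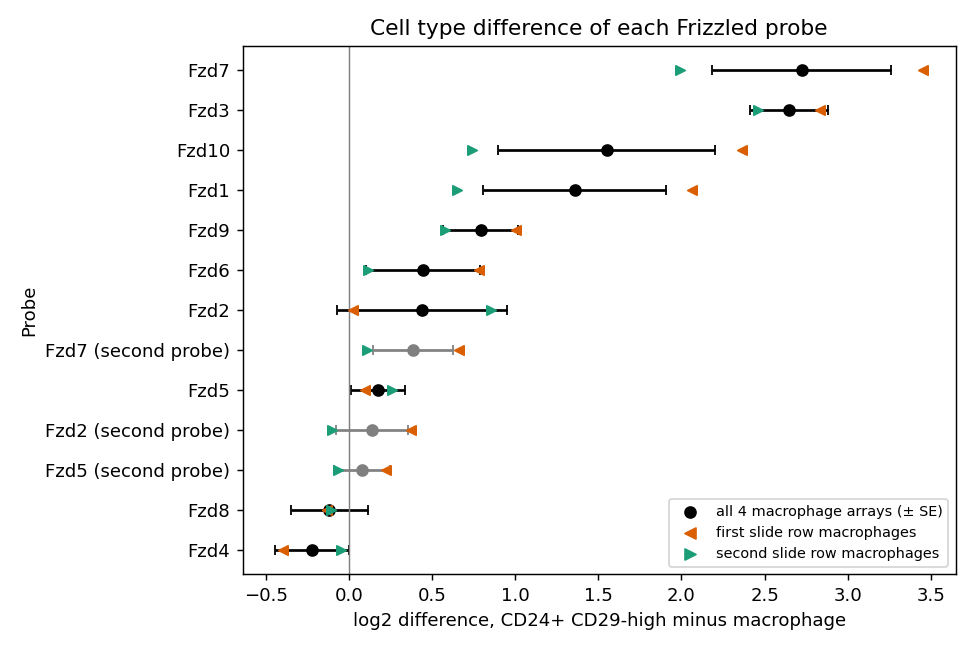
Log2 difference of CD24+ CD29-high cells minus macrophages (horizontal axis) for each of the 13 Frizzled probes (vertical axis). Circles and bars are the difference over all 4 macrophage arrays with its limma SE from the fit of every probe, and coloured triangles use the macrophage arrays of 1 slide row. The Fzd3 and main Fzd7 probes lie farthest to the right, and the second Fzd7 probe lies at 0.38.

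Fzd10, Fzd1 and Fzd9 were higher on both CD24+ CD29-high arrays than on every macrophage array without passing the threshold. Fzd10, a receptor with restricted expression in most adult tissues, read 2.82 and 2.52 in the high and low fractions. It read 0.30 and 1.40 for KO and 0.31 and 2.46 for WT. WT replicate 2 nearly reached the Dll1-low cells, and the first-row macrophage arrays were much lower. The difference was 1.55 (SE 0.66, 95% interval -0.06 to 3.17, limma adjusted p = 0.245), with 2.36 against the first slide row and 0.74 against the second. On the Fzd10 probe, the Cy3 reference signal was not well above background on any of the 4 macrophage arrays (40 to 51 over 20 to 25). The scanner software's own log ratio put the difference at 0.10, and the Cy5 channel alone at 1.62. In plain Cy5 signal, Fzd10 read 1533 in the high fraction, 1215 in the low one and 98 to 328.5 in macrophages, with 162 the highest KO value.

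Fzd1, a receptor that signals mainly through beta-catenin, read 0.90 and 0.65 in the high and low fractions. In macrophages it read -1.40 and -0.19 for KO and -1.18 and 0.45 for WT. As with Fzd7 and Fzd10, the replicate 1 arrays of both genotypes were the low ones. The difference was 1.36 (SE 0.55, 95% interval -0.00 to 2.72, limma adjusted p = 0.225), 2.07 against the first slide row and 0.65 against the second.

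Fzd9, a receptor known from brain and bone, read 0.77 and 0.95 in the high and low fractions. It read -0.02 and 0.10 for KO and -0.26 and 0.47 for WT. The highest macrophage array, WT replicate 2, stayed below the Dll1-high cells. The difference was 0.79 (SE 0.23, 95% interval 0.22 to 1.36), with an unadjusted p of 0.0149 that did not pass after adjustment over all genes (limma adjusted p = 0.104). Fzd6, which acts in planar polarity of skin and hair, read 0.13 and 0.16 in the high and low fractions. It read -0.21 and 0.07 for KO and -1.07 and -0.02 for WT. The groups did not overlap, but KO replicate 2 was within 0.1 of the Dll1-high cells and the difference of 0.45 (SE 0.35, limma adjusted p = 0.569) was 0.19 without WT replicate 1.

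The other 4 genes did not separate the cell types. Fzd4, which is known as the receptor for Norrin in blood vessels as well as for Wnt, read 0.53 and 0.76 in the high and low fractions. It read 0.87 and 0.50 for KO and 1.21 and 0.89 for WT, so that both Dll1 fractions fell between KO replicate 2 and the highest macrophage arrays. Its difference was -0.22 (SE 0.23, 95% interval -0.78 to 0.34, limma adjusted p = 0.693), the lowest of the family, and it turned positive with median centring in place of loess (0.19). Fzd8, a receptor that binds several Wnt proteins tightly, read 0.08 and -0.06 in the high and low fractions and -0.25 to 0.53 in macrophages. Its difference was -0.12 (SE 0.24, 95% interval -0.70 to 0.47, limma adjusted p = 0.875), and its sign turned in 2 of 19 alternatives. These intervals leave room for a difference of up to 0.78 in favour of macrophages for Fzd4 and 0.70 for Fzd8, so neither a macrophage excess nor equality was shown.

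Fzd5, a receptor studied in intestinal Paneth cells, read 0.17 and 0.43 in the high and low fractions and -0.06 to 0.29 in macrophages. The ranges overlapped, and the difference was 0.18 (SE 0.17, 95% interval -0.24 to 0.59, limma adjusted p = 0.67). Its second probe gave 0.08 (limma adjusted p = 0.892 with every probe tested singly), with no macrophage array well above background in either colour. Fzd2, which is widely used in mesenchymal cells, read -1.37 and -1.30 in the high and low fractions. It read -2.16 and -2.17 for KO and -0.56 and -2.20 for WT. Of the macrophage arrays 3 were nearly identical and below the CD24+ CD29-high cells, and WT replicate 1 was above them. The difference was 0.44 (SE 0.52, limma adjusted p = 0.746), and without WT replicate 1 it was 0.84 (limma adjusted p = 0.00765 in that setting, with 0.000767 to 0.998 over 20 alternatives). The fit without WT replicate 1 called 21% of all genes in either direction, and the fit with all arrays 9.13%. WT replicate 1 is the macrophage array with the highest fibroblast marker median (0.81) and the lowest macrophage marker median (2.45). The part of either in its Fzd2 ratio was not tested. The second Fzd2 probe, not well above background in Cy5 on any macrophage array, gave a difference of 0.14 (limma adjusted p = 0.833 with every probe tested singly).

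Among the macrophage arrays, several Frizzled genes split by slide row. Both replicate 2 arrays were above both replicate 1 arrays for 5 of 10 genes, where 26.6% of all genes tested showed that order, and below them for 1 gene, Fzd2 (29.1% of all genes). The mean of the second row exceeded that of the first by at least 1 on the log2 scale for 3 of 10, where 4.68% of all genes did. These were Fzd10 (1.63), Fzd7 (1.46) and Fzd1 (1.42). Row and replicate number go together in this design and cannot be told apart. With first-row macrophages alone, 4 Frizzled genes were called higher in the CD24+ CD29-high cells (Fzd1, Fzd3, Fzd7 and Fzd10). That fit called 490 of all 31156 genes tested higher, and 3.15% in either direction. With second-row macrophages alone, 5 Frizzled genes were called higher (Fzd1, Fzd2, Fzd3, Fzd7 and Fzd9). The second-row fit called 8132 of all 31210 genes tested higher, and 48.6% in either direction.

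The pattern of Fzd7 over the 6 arrays, after each gene's mean was taken away, was most like that of Cdh1, the epithelial adhesion protein E-cadherin, with a root mean square difference of 0.179 on the log2 scale. Cdh1 read 4.90 and 4.81 in the high and low fractions, 1.85 and 2.62 for KO and 1.47 and 2.80 for WT, again with replicate 1 below replicate 2. Next came Jag2, a Notch ligand (0.198), Camk4, a calcium-dependent kinase (0.206), a long noncoding transcript that the array design names only by its position (0.224) and Kctd1 (0.253). All 6 points of each pattern share the same arrays and the split by cell type and slide.

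Wnt ligands differed between the cell types for a minority of genes. Of 18 tested Wnt and Norrin ligands, 3 were called higher in the CD24+ CD29-high cells and 0 lower, with a median difference of 0.25 over the list. Ndp, which encodes the Fzd4 ligand Norrin, differed by 2.65 (SE 0.24, limma adjusted p = 0.00291), while Fzd4 did not pass the threshold. Wnt5b differed by 2.57 (SE 0.35, limma adjusted p = 0.0107) and Wnt9a by 1.60 (SE 0.23, limma adjusted p = 0.0123). Ndp and Wnt9a were each well above background on only 1 of the 4 macrophage arrays and entered the test mainly through the CD24+ CD29-high arrays, so their macrophage side is near background and their size is not exact.

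Co-receptors were called higher for 4 of 10 genes and lower for 0, with a median of 0.62. They were Ror1 (1.02, not well above background in macrophages and so at least 1.38-fold), Ror2 (1.52), Lrp6 (0.94) and Ptk7 (1.30). ROR1, ROR2 and PTK7 are receptors of signals that do not use beta-catenin, and LRP6 is the partner of Frizzled in the beta-catenin branch. Limma adjusted p-values ran from 0.0109 for Ror1 to 0.0485 for Ptk7. Ror1 passed the filter for signal through the CD24+ CD29-high arrays alone, so its p describes a distance from macrophage background readings. With the mean of all probes of a gene, Ror1 differed by 0.68 and Lrp6 by 0.61. For Ror2 and Ptk7 this mean equals the main probe value, so it is no separate check. In the Cy5 channel alone the differences were 0.58 for Ror1, 0.51 for Ror2, 0.96 for Ptk7 and 1.74 for Lrp6. Only Lrp6 passed the threshold there (limma adjusted p = 0.0125, with 0.092 to 0.216 for the others).

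Genes that set how much Frizzled stays at the cell surface or matures gave 4 higher and 1 lower of 13 tested, with a median of 0.49. The R-spondin receptors, which block the removal of Frizzled by the ligases RNF43 and ZNRF3, were all higher. Lgr5 differed by 4.47 (SE 0.23, limma adjusted p = 0.000739) on the log2 scale, a distance from background readings, since no macrophage array was well above background. Lgr6 differed by 3.15. Lgr4, also not well above background on any macrophage array, differed by 2.28, at least 3.44-fold in the Cy5 channel. These are main probe values. With the mean of all probes of a gene, Lgr5 differed by 2.23 and Lgr6 by 1.81. For Lgr4 this mean equals the main probe value, so it is no separate check. Lgr5 was also one of the basal marker genes, so its difference is not independent of the check on the sort. Shisa2, of a family whose members hold Frizzled in the endoplasmic reticulum, was higher by 1.61, with 1 of 4 macrophage arrays well above background, and Shisa5 was lower (-2.05, limma adjusted p = 0.0194). With the mean of all probes, Shisa5 differed by -1.09. Rnf43 differed by 2.02 without passing the threshold (limma adjusted p = 0.0522).

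Of the soluble proteins with a Frizzled-like Wnt-binding domain, 0 of 4 tested passed the limma threshold. Sfrp1 had the smallest p there, with a difference of 2.01 (limma adjusted p = 0.0622) that is not exact, because no macrophage array was well above background. Its log2 ratio was 1.18 in the high and 2.89 in the low fraction, so the size depends on which of the 2 arrays is read. Of the 17 beta-catenin pathway genes 1 was called higher and 1 lower. Ctnnb1, which encodes beta-catenin, was the higher one (1.01, limma adjusted p = 0.026). The transcription factor gene Lef1 was the lower one (-1.60, limma adjusted p = 0.0422), well above background on 2 of the 4 macrophage arrays. In the Cy5 channel alone neither passed the threshold. The differences there were 0.86 for Ctnnb1 (limma adjusted p = 0.0734) and only -0.29 for Lef1 (limma adjusted p = 0.887). Of 11 planar polarity genes, which act with Fzd3 and Fzd6, 2 were called higher, Vangl1 (2.13, limma adjusted p = 0.0189) and Prickle1 (1.02, limma adjusted p = 0.0428), and 0 lower. With the mean of all probes of a gene, Vangl1 differed by 1.35. All 16 pathway genes called and named here kept their sign in every alternative, but many calls were lost. The call was lost in 13 of 19 alternatives for Lrp6 and Prickle1, 12 of 19 for Ptk7, 12 of 18 for Lef1 and 10 of 19 for Ctnnb1. The R-spondin receptors lost it in 1 of 18 (Lgr4 and Lgr6) or 2 of 18 (Lgr5), and the other 8 genes in 3 to 7 of 18 or 19. Genes with 18 alternatives could not be tested where signal was required on every array. Lgr4, Lgr5 and Ror1 passed the filter for signal through the CD24+ CD29-high arrays alone, so their counts describe a distance from background readings. Each list's share of calls should be read against the 4.19% of all genes called higher and the 4.94% called lower.

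**Figure D3:**
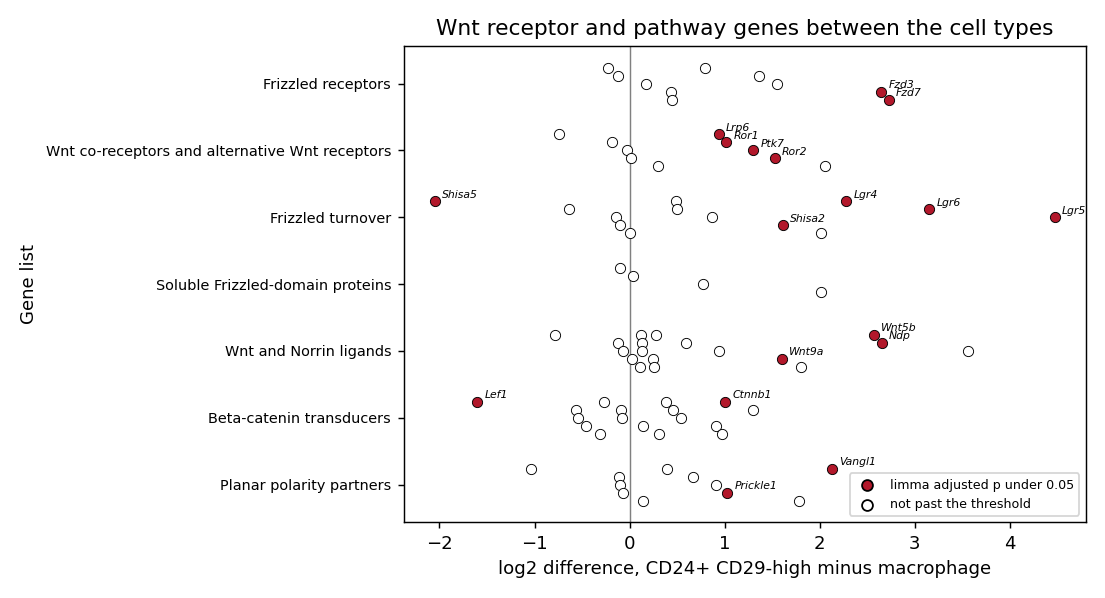
Log2 difference of CD24+ CD29-high cells minus macrophages (horizontal axis) for each tested gene of 7 lists (vertical axis), 1 point per gene, filled where the limma adjusted p was under 0.05. Filled points lie to the right of 0 except Shisa5 (-2.05) and Lef1 (-1.60).

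Between macrophages of Dll1 conditional KO and WT mice no Frizzled gene passed the test. This comparison asks whether loss of Dll1 changed gene expression in gland macrophages. Of the 10 genes 9 were tested, Fzd3 being too dim. Limma called 0 of the 9, with 0 at an unadjusted p under 0.05. Of all 24764 genes tested it called 0%, and 0.125% (31 genes) had an unadjusted p under 0.05. With the replicate number as a block the counts of calls were also 0, and 0.573% of all genes had an unadjusted p under 0.05. Every Frizzled gene had a limma adjusted p of 0.999 (0.958 to 0.997 with the block).

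Fzd2 had the largest KO minus WT difference, -0.79 (SE 0.65, 95% interval -2.55 to 0.98). It was -1.60 within the first slide row and 0.03 within the second, and 0.03 without WT replicate 1, so it rested on that array. Fzd10 differed by -0.53 (SE 0.89), with -0.01 in the first row and -1.06 in the second. It turned to 0.54 without WT replicate 2 and 0.02 without KO replicate 1. Fzd1 differed by -0.43 (SE 0.77), turning to 0.38 without WT replicate 2 and 0.18 without KO replicate 1. With median centring and all arrays kept, Fzd1 (0.47) and Fzd2 (0.24) were positive too, so the sign of these 3 genes depended on single arrays or, for Fzd1 and Fzd2, also on the scaling.

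Fzd4 and Fzd8 were the tested Frizzled genes whose KO and WT values did not overlap, 2 of 9, where 20.2% of all genes did. Fzd4 was lower in KO by 0.34 within the first row and 0.39 within the second, with a difference of -0.36 (SE 0.35, 95% interval -1.32 to 0.59) that turned to 0.26 with median centring, a scaling under which the all-gene median went from -0.10 to 0.46. The median of 10 endothelial marker genes was 1.69 and 2.18 in KO and 2.77 and 3.39 in WT, and its part in the Fzd4 values was not tested. Fzd8 was higher in KO by 0.78 in the first row and 0.05 in the second, with a difference of 0.42 (SE 0.35) that stayed positive in all 15 alternatives, from 0.22 to 0.73. Fzd6 differed by 0.48 (SE 0.49), and Fzd5, Fzd7 and Fzd9 lay within 0.1 of 0, at 0.02, -0.01 and -0.07. The intervals were wide, for Fzd7 from -2.17 to 2.14.

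**Figure D4:**
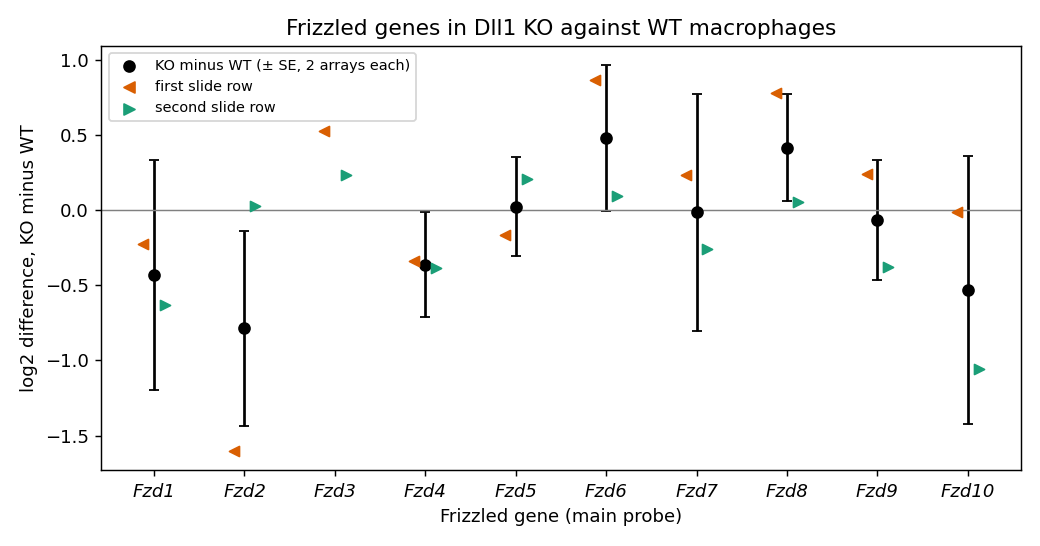
Log2 difference of KO minus WT macrophages (vertical axis) for the main probe of each Frizzled gene (horizontal axis). Black circles and bars give the difference over 2 arrays per genotype with its limma SE, and triangles give it within each slide row. Fzd3 has no circle because it was too dim to be tested, and the Fzd2 triangles lie at -1.60 and 0.03.

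The Dll1-high and Dll1-low fractions of the CD24+ CD29-high cells differed by less than 2-fold in every Frizzled gene. With 1 array per fraction there is no replicate check and no test. 0 of 10 Frizzled genes were 2-fold apart, where 0.196% of the 32147 genes compared were. Fzd10 was 0.31 higher in the Dll1-high cells, and 17.1% of all genes were at least as far apart. Fzd1 was 0.25 higher, Fzd3 0.17, Fzd8 0.15 and Fzd7 0.04. Fzd5 differed by -0.26, Fzd4 by -0.22, Fzd9 by -0.18, Fzd2 by -0.07 and Fzd6 by -0.03. The genes thus split evenly, 5 higher and 5 lower, with a median of 0.00 on the log2 scale. The Fzd3 and Fzd7 ratios that set the CD24+ CD29-high cells apart from macrophages were found in both fractions, 0.17 and 0.04 apart.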

How the data were processed

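The 6 two-colour arrays were scanned and read with Agilent Feature Extraction, per the file headers in version 12.0.2.2 (macrophage arrays) or 11.0.1.1 (the other 2 arrays), and in version 11.0 per the submitters' processing notes. Per the labels, samples carried Cy5 and the reference, RNA of 11 cell lines, carried Cy3 throughout. Per the file headers, spot and background signals are intensity values, and the scanner log ratio is a log10 of Cy5 over Cy3. The table of values that the authors deposited holds log2 ratios: it followed the scanner ratio with a correlation of 0.978 to 1 per array and column medians of -0.117 to 0.14, and its direction is the same.

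From median spot and local background signals, normexp (offset 50) corrected the background and loess normalized each array (limma 3.58.1 in R 4.3.3; files were read at version 1.17.8 of data.table). The 170 to 500 spots per array that carried a non-uniformity or outlier mark were dropped. For a gene with several probes, the brightest on average was its main probe. Probe names came from a RefSeq table by accession (27509 probes) or from the array design (28172). Probe positions follow the mm9 build that the headers name. A gene entered a test if at least 2 arrays of the comparison had a Cy5 signal well above background; the test was limma and Benjamini-Hochberg adjustment over all genes at 0.05; the script was tested on simulated data. The cell type comparison took the Dll1-high and Dll1-low arrays as 2 CD24+ CD29-high samples and all 4 macrophage arrays as the other group. Both KO and WT carried replicate numbers 1 and 2, which with only 2 pairs is no proof of pairing; the fit therefore had no block. The number of arrays limits the precision. Lower bounds on a fold used Cy5 levels alone, after loess and limma's Aquantile.

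The Frizzled genes and the pathway and marker lists were chosen with earlier results of these data known. Named pathway genes are those past the threshold, up to 4 per direction and list. Sfrp1, of smallest p in a list where none passed, and Rnf43 were added outside that rule. Rnf43 was named after its values were seen. Wnt10a (3.56, limma adjusted p = 0.0537) and Ryk (2.05, limma adjusted p = 0.0581) also fell just short of the threshold between the cell types. The genes most like Fzd7 are the 5 of smallest root mean square difference.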

Additional observations from a re-analysis of the deposited data

How the results depend on the processing

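Of 2835 genes called between the cell types, the number was 1403 with the scanner software's log ratio, 1398 with the deposited value table and 1034 with median centring in place of loess. It was 93 with 4 groups fitted separately, 982 with first-row macrophages alone, 15177 with second-row macrophages alone, and 360 to 6510 when 1 array was left out. With median centring the all-gene median went from -0.04 to 0.19 and the calls from 1300 higher and 1535 lower to 949 and 85. The count of Frizzled genes called, 2, became 1 with an offset of 10 (7.19% of all genes called), the scanner log ratio (4.52%) or the value table (4.5%). The count was also 1 with the mean of all probes of a gene (9.25%). With a filter for signal on every array (12.9%) it was 1 as well, with 5 Frizzled genes tested and Fzd3 not among them. It was 0 with 4 groups, 0 to 3 when 1 array was left out, and 4 and 5 with first-row and second-row macrophages, settings chosen after seeing the data. The causes were not tested. KO minus WT gave 0 calls in every alternative, including the replicate block. Deviations of same-numbered arrays correlated at 0.595 across 24747 genes. Same-numbered arrays share both number and slide row, which cannot be told apart, and the cause was not tested. No call of a Frizzled gene or a named pathway gene changed direction, and the other genes were not compared for it. Depth is limited by signal over background: only 5 of 10 main Frizzled probes were well above background on all 4 macrophage arrays.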
